A study of Mus musculus with 22 samples.

Results

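Open chromatin was compared between T-bet+ and T-bet- type 2 conventional dendritic cells (cDC2s) of the mouse spleen, as profiled by the assay for transposase-accessible chromatin with sequencing (ATAC-seq). The members are 4 of the 22 samples of the series, 2 libraries of T-bet+ cDC2s and 2 of T-bet- cDC2s, chosen by their labels, and they were described over all 177956 windows of 150 bases that the authors had centred on the summits of 74217 peaks. Of these windows, 166547 held enough reads to be tested. Every group came from untreated *Tbx21* RFP-cre mice of 6 to 10 weeks, male and female, homozygous for a knock-in that makes a red fluorescent protein (RFP) from the gene of T-bet, and the labels name the tissue as pooled spleen. Sorted RFP+ cDC2s are the T-bet+ group and RFP- cDC2s the T-bet- group, with 50000 cells a library. The gate that the methods describe kept live cells without markers of T cells, B cells, monocytes and macrophages that carried CD11c, MHC class II and CD11b and lacked XCR1. The 2 ATAC-seq libraries of type 1 conventional dendritic cells (cDC1s) from the same strain entered the same fit, and RNA-seq of the same spleen subsets, 3 libraries each, gave the transcript of each gene. The labels do not say that libraries of a subset came from separate animals, so p-values measure the spread between these libraries, which may be technical. In bulk samples a smaller share of accessible cells and a lower accessibility in every cell cannot be told apart.

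Conventional dendritic cells take up antigen and present it to T cells, and cDC2s are the subset known for priming CD4+ T cells. The transposase Tn5 inserts sequencing adapters into DNA that is not wrapped tightly by nucleosomes, so a high count in a window marks an accessible promoter or enhancer. T-bet, encoded by *Tbx21*, is a T-box transcription factor best known from type 1 helper T cells and innate lymphocytes. Runx factors are its frequent partners in lymphocytes, whereas C/EBP and AP-1 factors act at many enhancers of monocytes and macrophages.

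Shown first are 9 windows because the results return to them. Each is the plus strand of GRCm38, 5′ to 3′, in lower case, with matches to the T-box, Runx, C/EBP, AP-1 or E-box CACCTG motif in capitals. Matches to other motifs are left in lower case. The first 3 are the windows of *Dtx1*, *Tbx21* and *S1pr1* with the smallest p. The capitals mark the E-box CACCTG (read on the minus strand) in *Dtx1* and an AP-1 motif in *S1pr1*, and none of the motifs marked here lay in the *Tbx21* window.
Dtx1, chr5:120697022-120697171: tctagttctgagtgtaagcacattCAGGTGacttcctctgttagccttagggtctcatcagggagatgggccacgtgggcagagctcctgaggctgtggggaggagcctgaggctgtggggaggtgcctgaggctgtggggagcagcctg
Tbx21, chr11:97112780-97112929: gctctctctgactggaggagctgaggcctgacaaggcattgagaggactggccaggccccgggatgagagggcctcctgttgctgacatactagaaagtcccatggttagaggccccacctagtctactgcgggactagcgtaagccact
S1pr1, chr3:115689544-115689693: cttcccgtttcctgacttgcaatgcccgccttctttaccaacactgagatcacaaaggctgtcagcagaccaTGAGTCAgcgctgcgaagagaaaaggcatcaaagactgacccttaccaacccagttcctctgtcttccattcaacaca

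The next 3 windows had the largest log2 fold changes among well covered windows that held both a T-box and a Runx motif and were more accessible in T-bet+ cDC2s. They lie in introns of *Dstn*, which encodes an actin-severing protein, *Acap2*, a regulator of membrane traffic, and *Map3k20*, a stress kinase. Capitals mark the T-box motif (its looser form in *Acap2* and *Map3k20*) and the Runx motif, and in *Acap2* the T-box motif runs into the E-box CACCTG.
Dstn, chr2:143924811-143924960: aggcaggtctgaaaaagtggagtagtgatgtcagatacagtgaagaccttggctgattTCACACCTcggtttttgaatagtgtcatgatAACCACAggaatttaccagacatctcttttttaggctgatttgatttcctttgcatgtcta
Acap2, chr16:31136769-31136918: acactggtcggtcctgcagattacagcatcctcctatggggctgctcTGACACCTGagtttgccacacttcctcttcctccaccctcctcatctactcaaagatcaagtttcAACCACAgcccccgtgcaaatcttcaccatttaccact
Map3k20, chr2:72365406-72365555: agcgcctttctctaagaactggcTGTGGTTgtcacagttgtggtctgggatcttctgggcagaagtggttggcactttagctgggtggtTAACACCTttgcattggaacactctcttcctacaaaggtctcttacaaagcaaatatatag

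The last 3 were chosen in the same way among windows with both a C/EBP and an AP-1 motif that were more accessible in T-bet- cDC2s. They lie in introns of *Metap1d*, a mitochondrial methionine aminopeptidase, *Fam102b* and *Lhfpl2*. Capitals mark the C/EBP and AP-1 motifs, 3 in *Metap1d*, 2 in *Fam102b* and 4 in *Lhfpl2*.
Metap1d, chr2:71499965-71500114: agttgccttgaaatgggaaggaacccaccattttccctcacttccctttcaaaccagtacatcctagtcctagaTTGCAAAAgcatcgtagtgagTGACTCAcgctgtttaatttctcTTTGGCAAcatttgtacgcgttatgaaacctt
Fam102b, chr3:109010950-109011099: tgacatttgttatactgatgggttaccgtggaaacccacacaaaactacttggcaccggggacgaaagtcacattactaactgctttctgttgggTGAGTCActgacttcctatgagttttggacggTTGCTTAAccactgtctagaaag
Lhfpl2, chr13:94154594-94154743: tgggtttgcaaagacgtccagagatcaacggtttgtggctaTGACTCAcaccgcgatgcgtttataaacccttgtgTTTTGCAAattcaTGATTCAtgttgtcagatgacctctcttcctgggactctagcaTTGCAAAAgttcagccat

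The 6 ATAC-seq libraries held 7270164 to 10081555 reads in windows. Across windows, the Pearson correlation of log2 counts was 0.932 between the T-bet+ libraries and 0.925 between the T-bet- libraries, against 0.859 to 0.872 between libraries of different cDC2 subsets. These are descriptions over windows, which are not independent and partly overlap. The 4 cDC2 libraries followed their labels at the marker genes described below. *Tbx21* carries the reporter used for sorting, and the study names the markers from these subsets, so this is no independent check of the labels.

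T-bet+ and T-bet- cDC2s differed at 10460 windows. Of the windows tested, 6529 were more accessible in T-bet+ cDC2s, 3.92% of all, and 3931 in T-bet- cDC2s, 2.36% of all (edgeR quasi-likelihood test, Benjamini-Hochberg adjusted p under 0.01 and absolute log2 fold change over 0.5). A log2 fold change is positive where T-bet+ cDC2s were higher, and its median over all tested windows was -0.0118. When libraries were scaled by their total reads alone, the split became 5216 higher in T-bet+ and 4669 higher in T-bet-, and the median moved to -0.0968. In the main fit the median differed with depth. It was -0.159 in windows averaging under 15 normalized counts, 0.143 at 200 to 500 and 0.0353 above 1000. DESeq2 called 4922 windows, 3297 higher in T-bet+ and 1625 higher in T-bet-. Leaving out T-bet+ replicate 1, T-bet- replicate 1 or T-bet- replicate 2 left 6286, 6139 and 5580 called windows.

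Median counts over the called windows give the size of the difference. Windows higher in T-bet+ held medians of 86.9 and 78.0 normalized counts in the T-bet+ libraries and 28.1 and 27.5 in the T-bet- libraries, with a median log2 fold change of 1.53. Windows higher in T-bet- held medians of 15.3 and 16.5 in T-bet+ against 53.0 and 55 in T-bet-, with a median of -1.68. A log2 fold change beyond 2 in size was found in 1578 windows higher in T-bet+ (24.2% of that set) and 1218 higher in T-bet- (31.0%). Libraries of the subsets did not overlap in 6528 of 6529 and in 3931 of 3931 called windows, and also in 47.7% of windows not called.

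**Figure D1:**
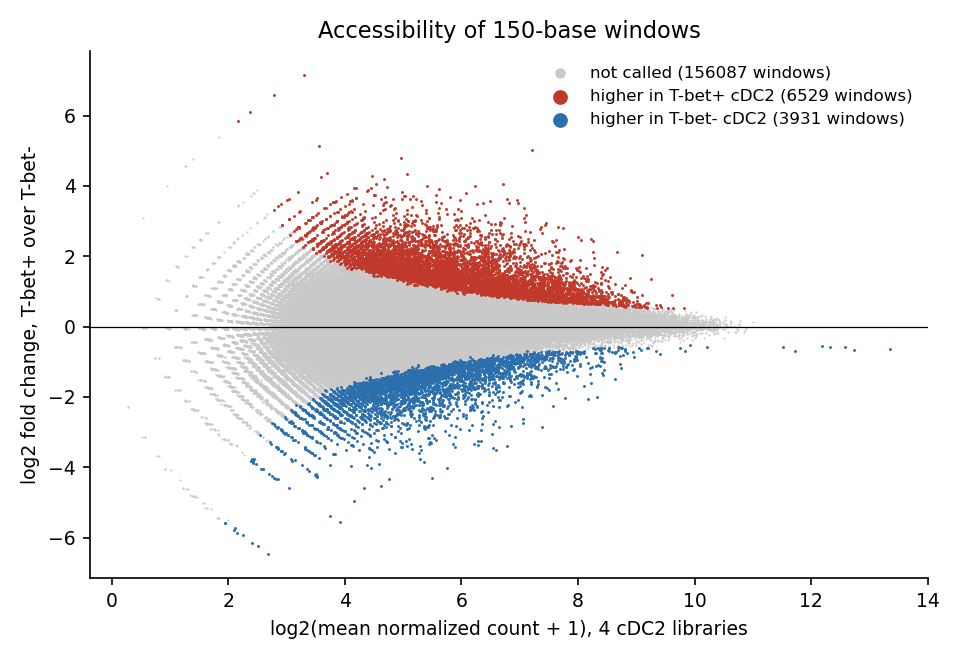
Log2 fold change (T-bet+ over T-bet-) against log2 of the mean normalized count plus 1 over the 4 cDC2 libraries, for the 166547 tested windows, with the 6529 windows higher in T-bet+ and the 3931 higher in T-bet- coloured. The *Dtx1* window at 5.01 lies apart from other windows of like count, and larger changes are found at low counts.

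*Dtx1*, which encodes the E3 ligase Deltex1 and is a known target of Notch signalling, held the largest increase among windows averaging at least 30 normalized counts. At chr5:120697022-120697171, 1693 bases 5′ of the nearest annotated start of the gene, the T-bet+ libraries held 338 and 238 normalized counts against 8.65 and 8.87 in the T-bet- libraries. The cDC1 libraries held 10.4 and 18.3, so the T-bet+ libraries stood above those of both other subsets. The log2 fold change was 5.01 ± 0.32 (SE, n = 2 and 2), with an adjusted p of 4.4e-20 by edgeR. Of the 8 windows of *Dtx1*, 7 were called, all higher in T-bet+, with log2 fold changes from 1.97 to 5.01. In the eighth, the T-bet+ libraries held 41.1 and 38.5 and the T-bet- libraries 21.6 and 12.4, without overlap but with an adjusted p of 0.026. *Dtx1* RNA followed, at 7090, 7380 and 7850 normalized counts in T-bet+ libraries against 144, 193 and 204 in T-bet- libraries.

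*Tbx21*, the gene that carries the reporter, had 13 windows, of which 11 were tested and 3 called, all higher in T-bet+. The window over its start held 68.8 and 66.0 normalized counts in T-bet+ libraries against 18.4 and 29.3 in T-bet- libraries, a log2 fold change of 1.47 ± 0.33 (SE, n = 2 and 2). The window printed above, in the first part of the gene 2477 bases 3′ of the start, held 25.8 and 29.3 against 1.08 and 7.99, a log2 fold change of 2.49 ± 0.54 (SE, n = 2 and 2). Both values are smaller than that of the top *Dtx1* window, and the libraries of the subsets did not overlap in either. A window 681 bases 3′ of the start was also called, at 36.3 and 45.9 against 13 and 17.7, but its adjusted p was near the threshold and the call was lost under 10 alternatives, among them DESeq2, the fit of the 4 cDC2 libraries alone and the omission of any of these libraries. All 3 called *Tbx21* windows lost the call when T-bet- replicate 1 was left out, with log2 fold changes then of 1.2, 1.78 and 1.21. *Tbx21* RNA was 542, 584 and 404 normalized counts in T-bet+ libraries against 6.77, 36.3 and 55.7 in T-bet- libraries.

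*S1pr1*, which encodes a receptor that guides cells along gradients of sphingosine-1-phosphate, went the other way. Of its 23 tested windows, 5 were called, all higher in T-bet-, and all lay 3′ of the gene, 10638 to 41919 bases from its start. The window printed above, at chr3:115689544-115689693, held 35.3 and 44.0 normalized counts in T-bet+ libraries against 110 and 133 in T-bet- libraries, a log2 fold change of -1.62 ± 0.27 (SE, n = 2 and 2, adjusted p 9.8e-06 by edgeR). The 2 windows in the exons of *S1pr1* had log2 fold changes of -0.44 and 0.41 and were not called. The difference was thus found at distance from the gene and not over its body. Of the 5 called windows, 3 lost the call under DESeq2 and when T-bet- replicate 1 was left out, with log2 fold changes in that fit of -0.91, -1.9 and -1.37. *S1pr1* RNA was low, at 0.929, 0 and 0 normalized counts in T-bet+ libraries against 57.6, 49.5 and 18.6 in T-bet- libraries.

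**Figure D2:**
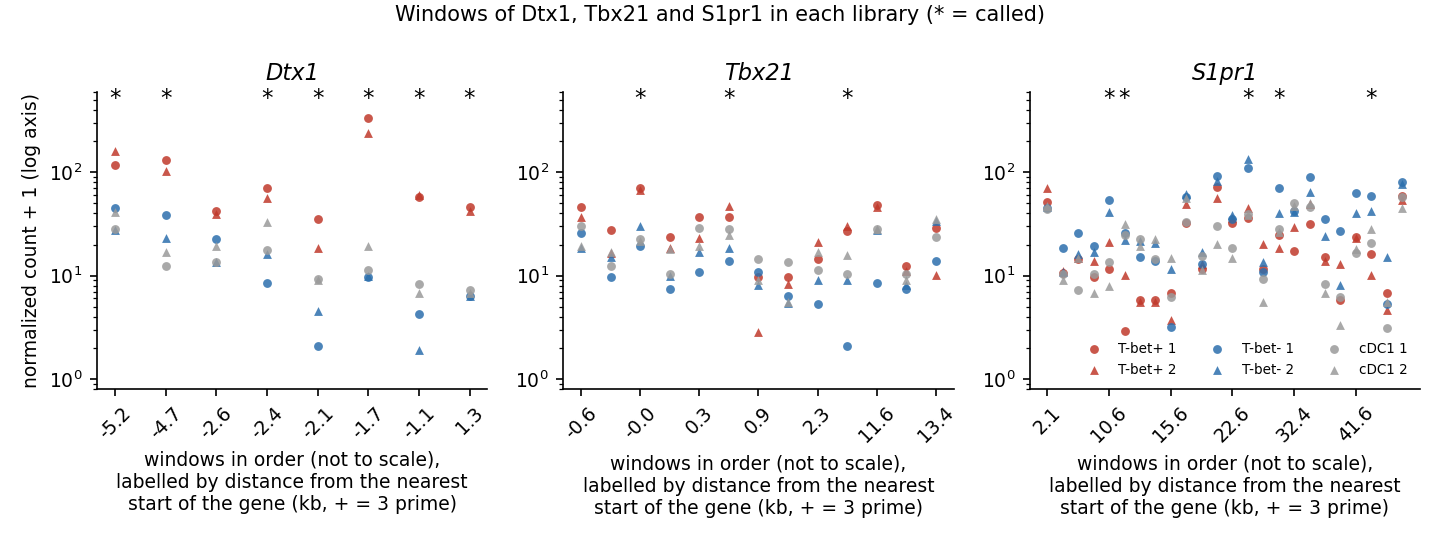
Normalized counts of every library in each window of *Dtx1*, *Tbx21* and *S1pr1*, on a log axis of the count plus 1, with called windows starred and windows placed in order and not to scale and labelled by distance from the nearest start of the gene in kilobases, positive being 3′. T-bet+ libraries lie above T-bet- libraries in the *Dtx1* windows, up to 338 against 8.65, and below them in the called *S1pr1* windows.

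Besides *Dtx1*, the 9 windows with the largest increases in T-bet+ cDC2s, taking 1 window a gene, lay at genes of varied function. A window in *Il12rb2*, which encodes a chain of the interleukin-12 receptor, held 132 and 116 normalized counts in T-bet+ libraries against 11.9 and 6.21 in T-bet- libraries, and 8.32 and 1.14 in cDC1s. Its log2 fold change was 3.79 ± 0.38 (SE, n = 2 and 2), and 5 of the 8 tested windows of *Il12rb2* were called higher in T-bet+. *Il12rb2* RNA was 526, 708 and 417 in T-bet+ libraries against 665, 240 and 529 in T-bet- libraries, and overlapped between the subsets.

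*Macf1*, which links actin to microtubules, and *Oat*, the ornithine aminotransferase, also had RNA that did not pass the test. The *Macf1* window held 50.6 and 73.4 normalized counts against 4.33 and 1.77, and its RNA differed by a log2 fold change of 0.34 (adjusted p 0.62 by edgeR). The *Oat* window held 217 and 178 against 10.8 and 12.4, and its RNA differed by 0.15 (adjusted p 0.69 by edgeR).

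At *Ncald*, *Slc12a3* and *Pcp4* chromatin and RNA moved together. The *Ncald* window, 818 bases 5′ of a start of this neuronal calcium sensor gene, held 84.0 and 95.4 against 6.49 and 5.32, with RNA at 794, 814 and 704 against 28.2, 4.83 and 21.2. The window of *Slc12a3*, a sodium chloride cotransporter, held 65.9 and 65.1 against 3.24 and 6.21, with an RNA log2 fold change of 2.5 (adjusted p 0.012 by edgeR). The *Pcp4* window held 147 and 134 against 3.24 and 13.3, while its RNA was near the floor, at 14.9, 12.3 and 15.6 in T-bet+ and 0 in every T-bet- library. The remaining windows, at *Gm2233*, *Ripor3* and *Gm12655*, had log2 fold changes of 3.99, 3.82 and 3.74. The *Gm12655* window was as accessible in cDC1s, at 101 and 119, as in T-bet+ cDC2s, at 80.2 and 92.6.

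Among the 10 windows with the largest decreases, that of *Gm12649* came first, at 0.955 and 7.34 normalized counts in T-bet+ libraries against 69.2 and 99.4 in T-bet- libraries. A window 14148 bases 5′ of *Rbpj*, the DNA-binding factor of Notch signalling, held 2.87 and 7.34 against 70.3 and 71.9, a log2 fold change of -3.76 ± 0.45 (SE, n = 2 and 2). *Rbpj* RNA differed by -0.32 (adjusted p 0.59 by edgeR), and 5 other *Rbpj* windows were called higher in T-bet+. The locus therefore held called windows in both directions.

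At *Abca6*, a transporter gene of the ATP-binding cassette family, and *Cacna1d*, a calcium channel subunit, the named window and the RNA were both lower in T-bet+ cDC2s by their fitted values. The *Abca6* window held 3.82 and 8.25 against 108 and 91.4, with an RNA log2 fold change of -4.48 that did not pass the test (adjusted p 0.062 by edgeR). The *Cacna1d* window held 4.78 and 5.5 against 47.6 and 64.8, with RNA at 5.57, 7.04 and 14.7 against 148, 117 and 76. Of the 41 tested windows of *Cacna1d*, 2 were called higher in T-bet- and 1 higher in T-bet+. The *Capn13* window was at its highest in cDC1s, at 484 and 508, with 173 and 164 in T-bet- and 5.73 and 24.8 in T-bet+ cDC2s. Those of *Ell*, *Lrpap1*, *Metap1d*, *Gm40787* and *Kif1b* had log2 fold changes from -3.84 to -3.49.

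The printed windows with paired motifs gave the following counts. The *Dstn* window held 98.4 and 122 in T-bet+ libraries against 9.73 and 11.5 in T-bet- libraries, and the *Acap2* window 80.2 and 28.4 against 7.57 and 9.76. The *Map3k20* window held 91.7 and 107 against 19.5 and 16.9, while *Map3k20* RNA was lower in T-bet+ cDC2s (log2 fold change -1.46, adjusted p 0.042 by edgeR). Of these windows, that of *Acap2* had the T-bet+ libraries farthest apart. In the other direction, the *Metap1d* window held 5.73 and 6.42 against 78.9 and 63.0, and that of *Fam102b* 2.87 and 7.34 against 47.6 and 63.9. The *Lhfpl2* window held 3.82 and 7.34 against 44.3 and 67.4, and its RNA differed by a log2 fold change of 1.26 (adjusted p 0.51 by edgeR).

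Called windows were then counted by gene, taking every window nearest to a gene within 50000 bases. A window higher in T-bet+ was found at 3508 genes, a window higher in T-bet- at 2408, and both at 474. At least 5 windows higher in T-bet+ and none the other way were found at 148 genes, against 55 genes in the opposite direction. The number of genes with a tested window is not given, and genes differ in their number of windows. These counts of genes thus have no base to be read against. *Plxnc1*, a semaphorin receptor gene, had 21 of 51 tested windows higher in T-bet+, with an RNA log2 fold change of 0.56 (adjusted p 0.27 by edgeR). *Ptpn3*, a tyrosine phosphatase gene, had 17 of 31, and its RNA was 148, 217 and 113 in T-bet+ libraries against 46.3, 30.2 and 40.7 in T-bet- libraries. A row of 17 called windows ran over 26832 bases at *Ptpn3* and *Gm12536*, where 22 windows were tested. *Tbc1d4*, which encodes a regulator of glucose transporter traffic, had 16 of 51, with RNA at 50500, 54500 and 37900 against 29600, 15600 and 18400 (adjusted p 0.052 by edgeR).

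*Chst3*, *1700063H04Rik* and *Frmd5* had 12 windows each higher in T-bet+, *Mical3*, *Tmem163* and *Ffar2* 11 each and *Ankrd55* 10. Among these genes *Frmd5* had the RNA difference that passed the test, at 773, 796 and 1130 in T-bet+ libraries against 16.9, 47.1 and 57.4 in T-bet- libraries. *Ffar2*, which encodes a receptor for short-chain fatty acids, had RNA at 3270, 3060 and 4970 against 1540, 2280 and 1710, without overlap but with an adjusted p of 0.056 by edgeR. Rows of neighbouring windows called in one direction were found here too: 12 of 15 tested windows over 20159 bases at *1700063H04Rik*, 10 of 11 over 19901 bases from *Rasal1* to *Dtx1*, and 10 of 13 at *Ffar2* and *Ffar3*.

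In the other direction *Gda*, which encodes guanine deaminase, had 11 of 27 tested windows higher in T-bet-, with RNA at 55.7, 35.2 and 59.6 in T-bet+ libraries against 240, 139 and 270 in T-bet- libraries (adjusted p 0.091 by edgeR). *Fndc3b* and *Noct* had 9 windows each, and *Tiam1*, *Socs6*, *Cubn* and *Ets2* 8 each. *Tiam1* activates the GTPase Rac, *Socs6* belongs to the suppressors of cytokine signalling and *Ets2* is a transcription factor. *Tiam1* RNA was 21.4, 38.7 and 136 in T-bet+ libraries against 343, 279 and 381 in T-bet- libraries, without overlap (adjusted p 0.054 by edgeR). *Psd3*, *Gm28981* and *Slc7a8* had 7 windows each. None of the RNA measured for these 10 genes passed the test, although it did not overlap between subsets at *Gda*, *Fndc3b*, *Tiam1*, *Socs6*, *Ets2* or *Slc7a8*. *Slc7a8*, a transporter of neutral amino acids, had RNA at 59.5, 0 and 32.2 against 438, 161 and 242. The share of all genes whose RNA did not overlap is not given, so no reading is drawn from such cases, here or at other genes.

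The share of windows called differed with their position. Of 51841 windows within 2000 bases of an annotated start, 2.66% were higher in T-bet+ and 1.66% in T-bet-. In introns the shares were 5.02% and 2.63%, in exons 5.27% and 2.5%, and between genes 4.09% and 2.82%. Beyond 50000 bases from any gene they were 2.13% and 2.33%. By distance from a start, windows at 250 to 500 bases had the lowest share higher in T-bet+, 1.71%, and those at 2000 to 5000 bases the highest, 5.1%. Depth moved with these shares: 10.4% of windows with a mean of 100 to 200 counts were higher in T-bet+ and 3.35% in T-bet-, against 0.565% and 0.862% of those under 15 counts. GC content moved with them too, with 1.03% and 3.76% at a GC content of 30 to 35% and 4.79% and 2.5% at 45 to 50%. The part of depth and GC content in the positional differences was not tested. The X chromosome had 119 called windows of 4451 (2.67%), against 5.33% to 7.18% on each of the 19 autosomes, at a median count of 20.4 against 21.8.

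**Figure D3:**
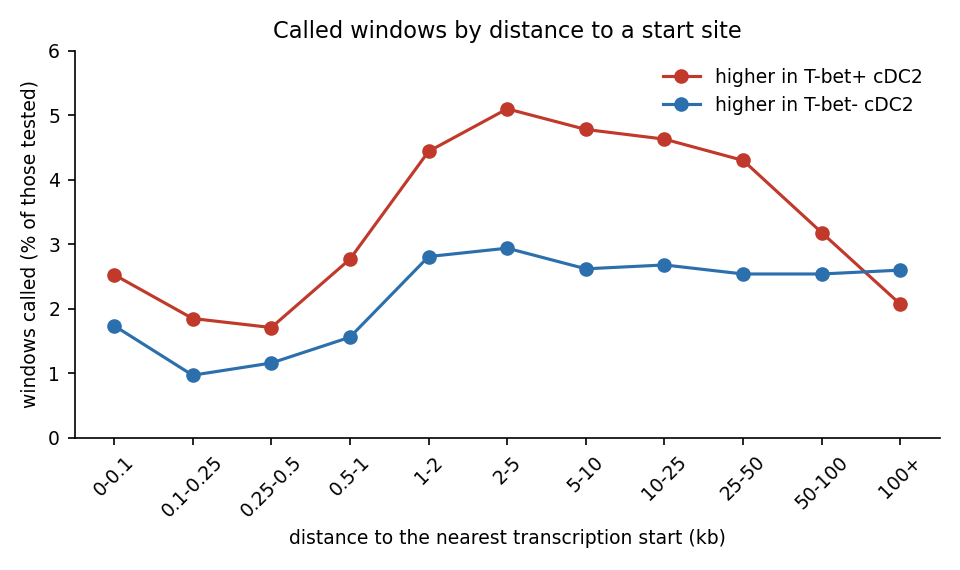
Percent of tested windows called in each direction by distance from the nearest annotated start. The T-bet+ share rises from 1.71% at 250 to 500 bases to 5.1% at 2000 to 5000 bases. The T-bet- share rises too, from 0.971% at 100 to 250 bases to 2.94% at 2000 to 5000 bases.

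Neighbouring called windows tended to share their direction. Pairs under 500 bases apart, 508 and 1091 in the first distance classes, went the same way in 100% of cases, although windows under 150 bases apart overlap and share reads. The share was 96.8% at 500 to 2000 bases, 85.1% at 5000 to 10000, 73.8% at 10000 to 50000 and 56.8% at 100000 to 500000 bases. Pairs drawn without regard to position would share their direction in 53.1% of cases.

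Whole peaks gave a similar picture on a larger unit. Of 73293 peaks tested, 5318 were higher in T-bet+ (7.26%) and 4171 higher in T-bet- (5.69%). Of the windows higher in T-bet+, 5579 (85.4%) lay in a peak called the same way, as did 3460 (88.0%) of those higher in T-bet-, and 0 lay in a peak called the other way. Only 3 of the 1391 peaks with more than 1 called window held both directions. The clearest was on chromosome 16, more than 50000 bases from any gene, where a window held 233 and 222 normalized counts in T-bet+ libraries against 57.3 and 60.3 in T-bet- libraries. Another window of that peak held 40.1 and 77.0 against 107 and 114. DESeq2 called 5807 peaks, and leaving out T-bet+ replicate 1, T-bet- replicate 1 or T-bet- replicate 2 gave 5754, 5879 and 5500.

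The cDC1 libraries place the called windows against another subset. In the set higher in T-bet+, both cDC1 libraries were below both T-bet+ libraries in 5243 windows (80.3%) and above both subsets of cDC2s in 496 (7.6%). In the set higher in T-bet-, both were below the T-bet- libraries in 2214 windows (56.3%) and above both subsets in 1042 (26.5%). The median cDC1 counts were 35.4 and 36.6 in the set higher in T-bet+ and 39.5 and 42.3 in the set higher in T-bet-. Windows were called for a high count in one cDC2 subset, which by itself favours cDC1 counts below that subset. The same shares over windows not called are not given, so these shares have no base to be read against. The cDC1 libraries share the fit and are no independent replicate of either cDC2 subset.

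Short DNA motifs were counted in all windows, on both strands. These are descriptions of letters, with no test, and a match does not show that a factor was bound. The T-box motif TCACACCT was in 0.714% of all windows, in 2.48% of those higher in T-bet+ and in 0.204% of those higher in T-bet-. Its looser form AGGTGTNA was in 1.92%, 5.25% and 0.585%. The Runx motif TGTGGTT was in 5.23% of all windows, 11.8% of those higher in T-bet+ and 6.21% of those higher in T-bet-. The Nr4a motif AAAGGTCA was in 2.39% and 1.35% and the NF-kB motif GGGANNTCC in 5.22% and 1.96% of the 2 sets, against 1.01% and 2.38% of all windows. The T-box, Nr4a and NF-kB motifs were thus more frequent in the set higher in T-bet+, as was Runx, which in the opposite set was close to its share in all windows.

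The set higher in T-bet- carried other letters. The C/EBP motif TTGCNNAA was in 12.8% of its windows, against 5.89% of all and 5.04% of the set higher in T-bet+. The AP-1 motif TGANTCA was in 20.7% of its windows and in 12.5% of the set higher in T-bet+, against 7.9% of all, so it was frequent in both. The IRF motif GAAANNGAA was in 8.83% and 5.27%, and the octamer ATGCAAAT in 1.73% and 0.827%. The PU.1 motif GAGGAAGT, known from enhancers of all myeloid cells, was in 11.7% of the set higher in T-bet+ and 8.5% of the other, against 5.5% of all. The NF-Y motif CCAAT was in 17.2% of both sets and the Rbpj motif TGGGAAA in 3.98% and 4.04%, close to all windows.

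In percentage points, the widest contrast was at the E-box CACCTG, the form known to be bound by Zeb repressors and by E proteins. It was in 10.8% of all windows, 17.6% of those higher in T-bet+ and 2.59% of those higher in T-bet-. Since its letters overlap with the looser T-box motif, windows with that motif were left out, and the shares were then 16.9% and 2.53%, with 10.2% of windows not called. Within windows of 45 to 50% GC the shares were 15% and 2.21%, with 9.74% of windows not called, and outside promoters 17.1% and 2.51%, with 10.5%. Of all tested windows with the E-box, 6.42% were called higher in T-bet+ and 0.569% higher in T-bet-. *Zeb2* RNA was 915, 1330 and 1310 normalized counts in T-bet+ libraries against 7770, 2630 and 4650 in T-bet- libraries, without overlap but not past the test (adjusted p 0.12 by edgeR).

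**Figure D4:**
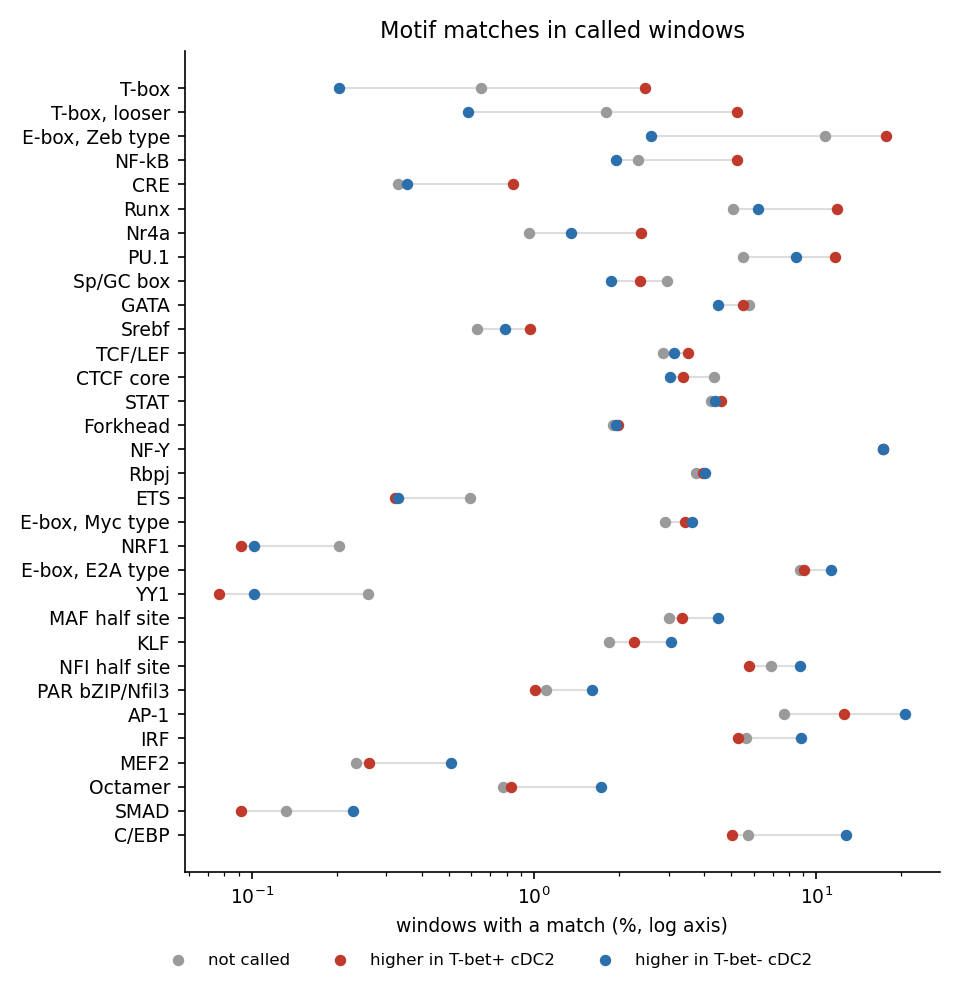
Percent of windows that hold each motif among windows higher in T-bet+, windows higher in T-bet- and windows not called, on a log axis. The E-box CACCTG (E-box, Zeb type) shows 17.6% against 2.59%, and C/EBP and AP-1 are at their highest in the set higher in T-bet-, at 12.8% and 20.7%.

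Pairs of motifs went with larger shares of called windows. Of the 192 tested windows with both the looser T-box and the Runx motif, 51 (26.6%) were higher in T-bet+ and 2 higher in T-bet-. With the T-box motif alone the share higher in T-bet+ was 9.77%, with Runx alone 8.22% and with neither 3.54%. Of 838 windows with both C/EBP and AP-1 motifs, 11.9% were higher in T-bet-, against 4.52% with C/EBP alone, 5.59% with AP-1 alone and 1.88% with neither. Windows with 0, 1 and 2 C/EBP motifs were higher in T-bet- in 2.19%, 4.73% and 14.1% of cases. Among the 256 windows with a log2 fold change below -3, 22.3% held a C/EBP motif, and among the 196 above 3, 7.65% held the looser T-box and 12.8% the Runx motif.

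Gene lists were then described by their windows, with the number called over the number tested, set against 3.92% and 2.36% of all windows. The 15 surface and other genes named for T-bet+ cDC2s had 37 of 138 windows higher in T-bet+ and none higher in T-bet-, with a median log2 fold change of 0.714. The study named this list from these subsets, so its direction is no independent evidence. Besides *Dtx1* and *Tbc1d4*, *Ccr6*, a chemokine receptor gene, had 5 called windows, *Cdh17* (a cadherin) 4, *Cr2* (complement receptor) and *Mdh2* (a malate dehydrogenase) 2 each and *Clec4a4* 1. The *Ccr6* window 1271 bases 5′ of a start held 202 and 184 against 50.8 and 38.2, with cDC1s at 239 and 261. *Cdh17* RNA was 1320, 1560 and 670 in T-bet+ libraries against 16.9, 6.04 and 0 in T-bet- libraries. *Mmp9*, a secreted protease gene, had RNA at 4800, 5480 and 5270 against 130, 118 and 279 with 0 of 3 windows called.

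The 16 genes named for T-bet- cDC2s, also chosen by the study on these subsets, had 11 of 109 windows higher in T-bet- and 1 higher in T-bet+, with a median of -0.321. The called windows were at *S1pr1* (5), *Psap* and *Npc2* (3 each), both genes of lysosomal lipid handling, with the exception at *Tmem176b*. At other genes of the list the RNA differed without a called window. *Clec12a*, an inhibitory lectin receptor gene, had 0 of 15 windows called and RNA at 236, 155 and 142 in T-bet+ libraries against 5690, 4820 and 4510 in T-bet- libraries. The chemokine gene *Ccl9* had 0 of 10 windows called and RNA at 609, 513 and 695 against 10600, 10300 and 8160.

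The monocyte-associated list had 13 of 173 windows higher in T-bet- and 5 higher in T-bet+, with a median of -0.384. The RNA of 12 of its 19 genes was higher in T-bet-, against 3.44% of all RNA genes tested, and of 0 higher in T-bet+. The study names several of these genes, such as *Csf1r*, *Lyz2*, *Cx3cr1* and *Ccr2*, from these subsets, so the direction is no independent evidence. *Csf1r*, the receptor of macrophage colony-stimulating factor, had 4 windows higher in T-bet-, and the most changed held 7.64 and 9.17 against 33.5 and 31.9. *Lyz2*, which encodes lysozyme, had 2, of which the window at its start held 70.7 and 59.6 against 124 and 123. *Cx3cr1* had 2 windows higher in T-bet- and 1 higher in T-bet+. *Ccr2*, the receptor that guides monocytes to tissues, had 0 of 10 windows called, with RNA at 34.4, 67.8 and 67.4 in T-bet+ libraries against 8020, 2900 and 5260 in T-bet- libraries. The *Csf1r* and *Lyz2* loci thus differed in chromatin and RNA and *Ccr2* in RNA.

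Markers of other cell types that the gate could hold moved with some of these lists. Monocyte markers had 4 of 54 windows higher in T-bet- and 2 higher in T-bet+, and their summed RNA was 375 to 551 normalized counts in T-bet+ and 4260 to 10000 in T-bet- cDC2s, over 8 genes that include *Ccr2*. RNA of 3 of these genes was called higher in T-bet- and of 0 higher in T-bet+. Red pulp macrophage markers had 3 of 50 windows higher in T-bet- and 1 higher in T-bet+, with RNA sums of 11000 to 12500 in T-bet+ against 20200 to 29500. By RNA, 5 of the 8 macrophage genes were called higher in T-bet- and 0 higher in T-bet+. Over all RNA genes tested the shares were 3.44% and 1.95%. Neutrophil markers had 1 of 29 higher in T-bet- and 2 higher in T-bet+, with sums of 1830 to 2290 in T-bet+ against 4460 to 5150. The neutrophil difference lay in *Csf3r*, at 214, 207 and 266 against 3140, 2520 and 2990, while the defining genes *S100a8* and *S100a9* differed by RNA log2 fold changes of 0.06 and -0.11 and overlapped. B cell markers had 3 of 64 windows higher in T-bet+, with sums of 6530 to 7920 against 4830 to 5660. By RNA *Cd22* and *Ms4a1* were called higher in T-bet+ and *Cd79b* higher in T-bet-, the last at 746, 477 and 640 against 2480, 2600 and 1660. T cell markers had 2 of 54 windows higher in T-bet+, both at *Lck*, with sums of 701 to 954 against 308 to 428. *Lck* RNA overlapped, at 7.43, 29.9 and 67.4 in T-bet+ libraries against 14.7, 29.0 and 62.7 in T-bet- libraries. Of the 10 T cell genes, RNA of 4 was tested and of 0 called. NK cell markers had 2 of 24 windows higher in T-bet+, with sums of 2610 to 2980 against 1460 to 1710. The *Ms4a1* window at its start, the gene of CD20, held 86.9 and 44.9 against 10.8 and 4.44, with cDC1s at 68.7 and 59.5. Erythroid markers had 0 of 8 windows called, with sums of 336 to 375 in T-bet+ against 214 to 321. Plasmacytoid dendritic cell markers had 5 of 96 windows higher in T-bet+ and 4 higher in T-bet-, with sums of 2200 to 2650 against 3130 to 3690. Markers of cDC1s had 5 of 127 higher in T-bet+ and 6 higher in T-bet-, 4 of these at *Cadm1*, with sums of 14900 to 18500 against 17100 to 18700 and of 170000 to 213000 in cDC1s themselves. Those sums include *Wdfy4*, which overlapped between the cDC2 subsets, and *Irf8*. *Irf8* RNA was 1490, 1190 and 1790 normalized counts in T-bet+ libraries against 3580, 5990 and 10500 in T-bet- libraries. The RNA of 4 of the 8 genes was called higher in T-bet- and of 0 higher in T-bet+. These were *Clec9a*, *Cadm1*, *Irf8* and *Tlr3*, with log2 fold changes of -5.55, -3.0, -2.17 and -1.78. RNA of *Cd79a*, *Ebf1* and *Pax5* was too low to be tested. The part of other cells in these differences was not tested.

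Among T-box and Runx genes, 14 of 141 windows were higher in T-bet+ and 2 higher in T-bet-, with a median of 0.314. Of these, *Runx1* had 6, *Runx2* 4, *Runx3* 1 and *Tbx21* 3 windows higher in T-bet+. *Runx2* held one window at 55.4 and 35.8 against 8.65 and 4.44 and another at 0.955 and 9.17 against 21.6 and 56.8, so the gene carried both directions. Of the Notch genes, 25 of 413 windows were higher in T-bet+ and 15 higher in T-bet-, and the median was -0.0231. *Dtx1* gave 7 of the 25, *Rbpj* 5 and *Jag1*, a Notch ligand gene, 4, whereas *Dtx2* had 4 windows higher in T-bet-. No window of *Hes1*, *Hey1* or *Notch1*, the first and second being transcriptional targets and the last a receptor, was called. The list therefore did not move in one direction.

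Conventional dendritic cell factors had 20 of 280 windows higher in T-bet+ and 4 higher in T-bet-, with a median of 0.224. *Nfkb1*, an NF-kB subunit gene, had 7 windows, *Relb*, *Ikzf1*, *Stat3* and *Flt3* 2 each, and *Irf4*, *Spi1*, *Zbtb46*, *Batf3* and *Bcl6* 1 each higher in T-bet+. *Irf8*, *Zeb2*, *Tcf4* and *Flt3* had 1 each higher in T-bet-. A window of *Spi1*, the gene of PU.1, held 202 and 129 against 69.2 and 71.9. Of the Nr4a genes, *Nr4a1* had 3 of its 15 windows higher in T-bet+. For C/EBP and NFI factors, 4 of 110 windows were higher in T-bet- and 2 higher in T-bet+, and the window at the start of *Cebpd* held 345 and 363 in T-bet+ libraries against 709 and 573 in T-bet- libraries.

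MHC class II and antigen presentation genes had 13 of 162 windows higher in T-bet+ and 1 higher in T-bet-, with a median of 0.288. *Ciita*, the master regulator of MHC class II transcription, had 4, of which the most changed held 165 and 175 against 36.8 and 50.6. *Pdcd1lg2*, which encodes the inhibitory ligand PD-L2, had 3, *H2-Ob* 2 and *H2-Ab1*, *H2-DMb2*, *Cd274* and *Cd40* 1 each, and *Cd86* had the window higher in T-bet-. By RNA, 1 of the 16 genes was called higher in T-bet+ (*H2-Ob*) and 2 higher in T-bet- (*Ctss* and *H2-DMb1*, by log2 fold changes of -1.08 and -1.2). *Ciita* RNA was 13800, 13400 and 16000 in T-bet+ libraries against 19600, 17800 and 20100 in T-bet- libraries (adjusted p 0.43 by edgeR). *Cd274* RNA, for the ligand PD-L1, was 5420, 6860 and 5880 against 10600, 5770 and 7250, with overlap.

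Toll-like receptor and related genes had 6 of 177 windows higher in T-bet+ and 9 higher in T-bet-, with 5 of the latter at *Cd36*, a scavenger receptor gene, and 2 each at *Tlr4* and *Tlr8*. *Cd36* RNA was 168, 144 and 53.7 in T-bet+ libraries against 2650, 792 and 1530 in T-bet- libraries. Chemokine and positioning receptors had 12 of 238 in each direction, with *Ccr6* on the one side and *S1pr1* on the other. Integrins had 5 of 243 windows higher in T-bet+ and 7 higher in T-bet-, with 4 of the latter at *Itgb5*. One window of *Itga4*, an integrin alpha chain, held 289 and 192 against at most 44.4, while *Itga4* RNA was 6640, 7820 and 6070 against 13300, 5310 and 6420.

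Chromatin was then set beside RNA over 9812 genes with a tested window and tested RNA. In spleen RNA, 280 genes were higher in T-bet+ (1.95% of those tested) and 494 higher in T-bet- (3.44%). Leaving out any of the 6 cDC2 libraries moved the count of 774 genes to between 307 and 1257. At some genes T-bet- replicate 3 stood apart from replicates 1 and 2, though not at others such as *Dtx1*. In order of replicate, the T-bet- libraries held 2780, 6090 and 25400 for *Spi1*, 1210, 3180 and 17800 for *Relb* and 472, 719 and 3180 for *Zbtb46*. The part of this spread in missed RNA calls was not tested. Of the 223 RNA genes higher in T-bet+ that had a tested window, 119 (53.4%) had windows higher in T-bet+ only, 2 higher in T-bet- only, 4 both and 98 (43.9%) none. Of the 422 higher in T-bet-, 116 (27.5%) had windows higher in T-bet- only, 44 (10.4%) higher in T-bet+ only, 33 both and 229 (54.3%) none. Of the 9167 genes whose RNA was not called, 17.6% had windows higher in T-bet+ only and 8.54% higher in T-bet- only. Spearman's rho across genes between mean window and RNA log2 fold changes was 0.26 over all genes and 0.6 over the 645 called by RNA, a description over genes that are not independent.

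Some genes moved in opposite directions. *Frmd4b*, a scaffold protein gene, had 5 windows higher in T-bet+ while its RNA was 517, 580 and 569 in T-bet+ libraries against 2060, 1330 and 1950 in T-bet- libraries. *Arhgef10*, a guanine nucleotide exchange factor gene, had 5 higher in T-bet+ with RNA at 217, 178 and 236 against 501, 434 and 431. *Ms4a7* had 3, with RNA at 246, 218 and 289 against 1940, 1810 and 1420, and *Galc*, a lysosomal galactosylceramidase gene, 3, with RNA at 34.4, 22.9 and 8.79 against 187, 162 and 190. The genes higher in T-bet+ by RNA with a window higher in T-bet- alone were *Cyp2s1* and *Rassf6*, 1 window each. A window was given to the nearest gene by position alone, which does not show that it acts on that gene.

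**Figure D5:**
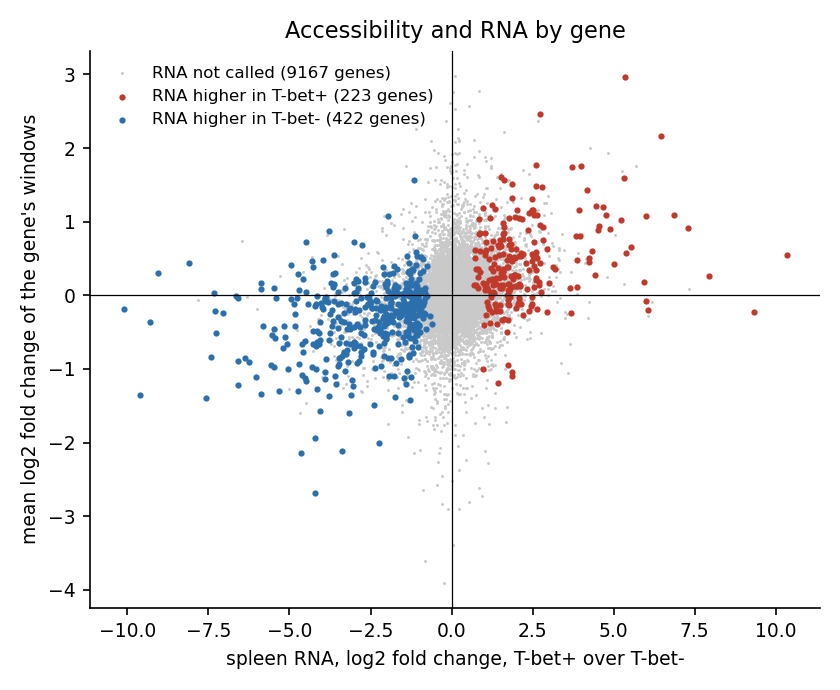
Mean log2 fold change of a gene's tested windows (vertical) against its spleen RNA log2 fold change (horizontal), both T-bet+ over T-bet-, for 9812 genes. Genes called by RNA are coloured by direction, and the 223 higher in T-bet+ lie at a median window value of 0.373 and the 422 higher in T-bet- at -0.247.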

How the data were processed

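ATAC-seq libraries of 50000 sorted cells were made by the authors with Tn5, aligned to mm10 with Bowtie2 2.2.5, filtered with SAMtools 1.9, shifted by strand, and called for peaks on all replicates together with MACS2 2.1.1.20160309. The values analysed are the counts deposited by the authors, whole reads per 150-base summit window, per peak and, for RNA-seq (HISAT2 2.1.0), per gene, without normalization. The score column deposited by the authors with the peaks is a constant 0, and the -log10 p column of the summit file was deposited by the authors with 1 value per summit. Neither was used. One sentence of the methods swaps the RFP labels, and the sample labels were followed.

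All 6 ATAC-seq libraries were fitted together, and likewise the 9 spleen RNA libraries, with subset as the only term, by edgeR 4.0.16 (filterByExpr, TMM, quasi-likelihood test, Benjamini-Hochberg adjustment) in R 4.3.3. Windows and peaks were called where the adjusted p was under 0.01 and the log2 fold change beyond 0.5 in size, thresholds that the study's methods give with DESeq2, and RNA at an adjusted p under 0.05. The study further required peaks to be reproducible in the subset concerned, a condition not applied here. Residual degrees of freedom were 3 in ATAC-seq. For windows the fit added 70.5 prior degrees of freedom from the spread shared over all windows. P-values and SEs of windows thus rest mostly on that shared spread, from all 6 libraries, and less on a window's own spread. Normalized counts are scaled to a common library size. Windows went to the nearest gene of GENCODE M21 within 50000 bases (the authors used M17), and sequences were read from GRCm38. Motifs, 32 in all, were exact consensus matches on both strands.

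Named windows are those of *Dtx1*, *Tbx21* and *S1pr1*, in each direction the 10 called windows with the largest change, of windows averaging at least 30 normalized counts, with no overlap between subsets and 1 window a gene, and the 10 genes with the most called windows and none the other way, then members of the gene lists with a called window and genes the study names. Others, such as genes whose RNA and windows disagree, were named after their values were seen. The members, lists and motifs were chosen with earlier results of these data known. On simulated counts for the window comparison, with 166547 windows, the fit recovered 200 of 200 windows changed 4-fold and 82 of 200 changed 2-fold. The changed windows all averaged at least 30 normalized counts, whereas the median tested window held 21.7 over the cDC2 libraries. The simulated spread followed the trend with the count and did not vary from window to window beyond it. Alternatives were DESeq2 1.42.0, other normalizations, filters, thresholds and sample sets, a replicate block and each library left out. Some items the study names are not reported here. Mesenteric lymph node RNA was not used.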

Additional observations from a re-analysis of the deposited data

How the results depend on the processing

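Under other settings the 10460 called windows (6529 higher in T-bet+, 3931 higher in T-bet-) became 4922 with DESeq2 (3297 and 1625, over 105502 windows left by its own filter) and 18870 at an adjusted p under 0.05 with no limit on the fold (11208 and 7662). Leaving out each library in turn gave 5580 to 10550 windows, 3434 to 6648 higher in T-bet+ and 2146 to 3930 higher in T-bet-. The 9489 whole peaks became 5807 with DESeq2 (3339 and 2468) and 5500 to 8027 with a library left out (2994 to 4557 and 2310 to 3470). The 774 RNA genes became 1425 with DESeq2, 1521 without a filter on low counts, 356 with the replicate block and 307 to 1257 with a library left out. The cause of these shifts was not tested. With 1 library left out, the lone library of a subset was assumed to vary like the others.

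Whether replicate numbers pair the ATAC-seq libraries is not stated. Deviations of libraries with the same number correlated at -0.0372 to 0.0193. This cannot decide the question, since libraries from the same animals could also differ by technical noise alone. In spleen RNA such correlations ran from -0.488 to 0.17. The replicate block gave 9754 windows, or 9401 with GC-bin offsets, and 8582 peaks. Of 34 named windows, 26 kept their direction and call under every alternative that gave a value, and none reversed. At *Tbx21* the call of the window over the start was lost under DESeq2 (adjusted p 0.01364). Shares of 15 of 64 motif and set combinations moved with DESeq2's calls, the E-box CACCTG to 19.4% and 1.78% and C/EBP to 14.5% in the set higher in T-bet-. With windows limited to 10000 bases from a gene, 3083 genes had a window higher in T-bet+ and 2034 one higher in T-bet-. With 2 libraries a subset, 39233 windows had an unadjusted p under 0.05, and on simulated counts 82 of 200 2-fold changes were recovered, which limits what a missed call means. Those changes were set only in windows averaging at least 30 normalized counts, so the recovery does not cover windows with fewer.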

Other observations

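Of 260 tested windows with a mean over 1000 normalized counts, 8 were called, all higher in T-bet- cDC2s. This is 3.08%, near the 2.36% of all windows, and the median log2 fold change of the 260 was 0.0353. The 8 had log2 fold changes from -0.54 to -0.68. Of these, 6 lie at *Gm10800* and *Gm10801* on chromosome 2, 1 at *Gm10222* and 1 in an intron of *Chl1*. One window of *Gm10800* held 7550 and 8870 normalized counts in T-bet+ libraries against 12900 and 12500 in T-bet- libraries, with 8120 and 9830 in cDC1s. At *Gm10222* the libraries of a subset lay farther apart, with 1880 and 3360 in T-bet+ against 4690 and 3680 in T-bet- libraries.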
